A study of Rattus norvegicus with 16 samples.

Results

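The renin-angiotensin-aldosterone genes described here are 8 genes of one hormone system: Agt, Ace, Agtr1a, Agtr1b, Agtr2, Mas1, Nr3c2 and Atp6ap2. They were chosen by symbol among the 14324 genes that a single-symbol probe set names, each taken at its brightest probe set, and all 8 were measured by 1 probe set each. Each of 16 hearts, taken from rats at 2 days of age, was run on its own array (Affymetrix Rat Gene 1.0 ST), with no pooling. The HHR, or Hypertrophic Heart Rat, is a strain with inherited cardiac enlargement, and its hearts are labelled as hypertrophic. The NHR, or Normal Heart Rat, is its control strain, with hearts labelled normal. Each strain gave 4 female and 4 male hearts, with no treatment named. The strains are compared as a whole, and no difference here is assigned to an allele. The design text has ventricles separated from atria while a growth protocol speaks of whole hearts, so atrial tissue may be present. The labels name no litters, so litter and strain cannot be told apart, and p-values measure the spread between these hearts.

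Angiotensinogen, encoded by Agt, is the precursor protein of the angiotensin peptides, and the endothelial peptidase encoded by Ace trims angiotensin I to angiotensin II. Angiotensin II acts mostly through the type 1 receptor, which rats carry as a pair of genes, Agtr1a and Agtr1b. The type 2 receptor (Agtr2), prominent before birth, and the Mas receptor (Mas1), which responds to a shorter angiotensin peptide, are generally described as opposing it. Angiotensin II also drives the adrenal cortex to release aldosterone, whose receptor is the transcription factor encoded by Nr3c2. Atp6ap2 encodes the (pro)renin receptor, which is also an accessory protein of the vacuolar proton pump that acidifies lysosomes and secretory vesicles. In heart muscle the type 1 receptor and the mineralocorticoid receptor are best known for their part in growth and fibrosis.

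Of the 8 genes, Nr3c2 fell in HHR hearts, Atp6ap2 rose by a small margin and the other 6 did not pass the test. Nr3c2 was lower by 20.2% (log2 difference -0.33, SE 0.08, limma adjusted p = 0.00976), and Atp6ap2 was higher by 12.2% (log2 difference 0.17, SE 0.06, limma adjusted p = 0.0497). Calls are limma tests on the deposited log2 values, with Benjamini-Hochberg adjustment over all 27342 probe sets and a threshold of 0.05. The strain test called 20.7% of all probe sets, 9.64% higher and 11.0% lower, so 2 called genes of 8 is a share near the background. The median difference of the 8 genes was -0.06, beside -0.02 over all genes. In none of the 8 genes did the HHR arrays separate fully from the NHR arrays, as they did for 4.15% of probe sets. No sex difference was called among the 8 (lowest limma adjusted p = 0.812, 0 of 8 with an unadjusted p under 0.05), where 0.0110% of probe sets were called, 0.00366% higher in one sex and 0.00731% in the other. The strain effect did not pass a test of difference between the sexes in any of them either (lowest limma adjusted p = 0.994, 0 of 8 with an unadjusted p under 0.05, 0% of probe sets called).

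**Figure D1:**
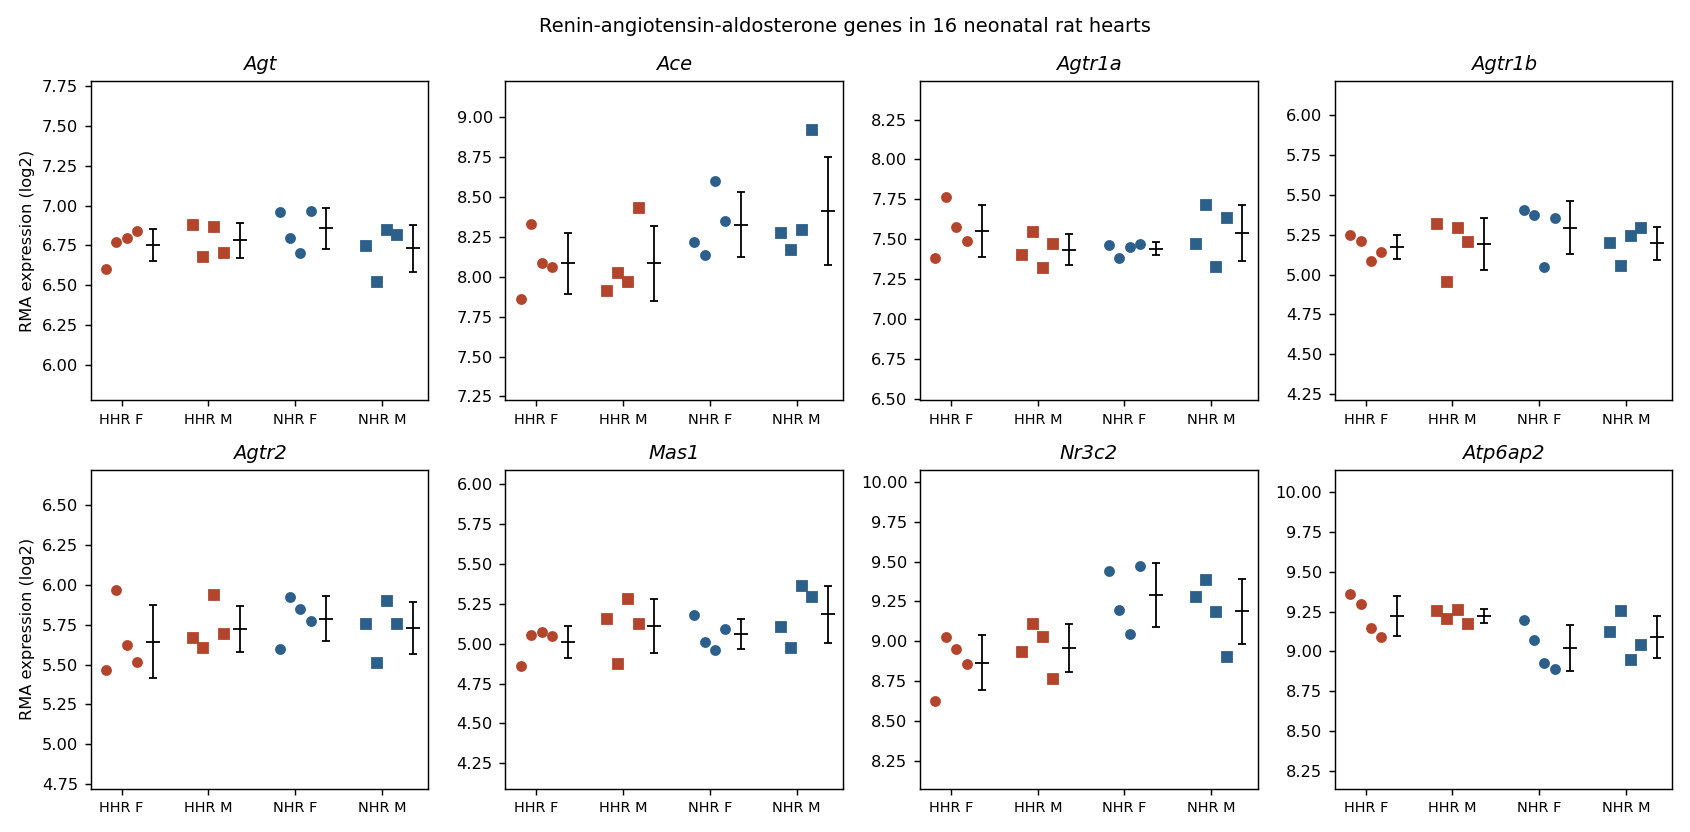
RMA expression (log2, vertical axis, each panel spanning the same range of log2 units) of the 8 genes in the 4 groups (F, female and M, male), with 1 point per array and the group mean ± SD (n = 4) beside it. Nr3c2 was lower in both HHR groups (means 8.87 and 8.96) than in both NHR groups (9.29 and 9.19), and the Ace value of NHR male 4, at 8.92, lies above all other arrays.

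The arrays were alike in overall signal, with medians of 7.19 to 7.28. With group means removed, the first component held 26.7% of the variance, and on it the NHR arrays spread widely in both directions. NHR female 3, NHR female 4 and NHR male 4 scored 14.4, 15.1 and 22.6, NHR male 3 scored 1.74, and the NHR arrays of replicates 1 and 2 scored -16.9 to -11.1, while HHR arrays lay between -3.72 and 7.48. All 8 arrays of replicates 1 and 2 had negative scores, and 7 of the 8 arrays of replicates 3 and 4 had positive ones. The 3 highest are called the high-scoring NHR arrays below, and results that rest on them are given with and without them. Leaving them out removes only the high end of that spread and keeps the NHR arrays at the low end. Replicates 1 and 2 alone, all with negative scores, keep that low end too. Differences of genes that follow or run against the component can shift with this choice. The low-scoring NHR arrays were not left out together, and replicates 3 and 4 alone were not fitted. With replicates 1 and 2 alone, Nr3c2 differed by -0.40 (limma adjusted p = 0.0435), Atp6ap2 by 0.12 (limma adjusted p = 0.320) and Ace by -0.17 (limma adjusted p = 0.359). Cardiomyocyte markers such as Myh6 and Tnni3 were bright on every array, and all 8 such markers lay above the 40th percentile of all values (6.57, the dim level) throughout. No background signal was recorded, so a gene under that level may be weakly expressed or may carry no signal. A sequence variant under a probe can also change its signal, which these values cannot tell from a change in RNA.

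Nr3c2, the mineralocorticoid receptor, gave the clearest difference. The HHR females read 8.63, 9.03, 8.95 and 8.86 (RMA log2 values, replicates 1 to 4) and the HHR males 8.93, 9.11, 9.03 and 8.76. The NHR females read 9.44, 9.20, 9.05 and 9.47, and the NHR males 9.28, 9.38, 9.18 and 8.90. All NHR arrays other than NHR female 3 and NHR male 4 thus lay above the highest HHR array, and 3 of 8 HHR arrays lay below the lowest NHR array. Means were 8.91 ± 0.16 in HHR and 9.24 ± 0.20 in NHR (SD, n = 8), a difference with a 95% confidence interval of -0.50 to -0.15. An exact permutation test over the arrays, with strain labels exchanged within each sex, gave p = 0.00531 (two-sided, 4900 arrangements). The call held in all 27 alternatives of the fit, at limma adjusted p values of 0.00327 to 0.0435. Without the high-scoring NHR arrays the difference was -0.39 (limma adjusted p = 0.00445). With group means removed, Nr3c2 ran against the component (r = -0.535 over 16 arrays), so leaving out only its high end is not a balanced check.

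Within females Nr3c2 differed by -0.42 (SE 0.12, limma adjusted p = 0.0252), the only call among the 8 genes there, where 12.0% of probe sets were called, 5.78% higher and 6.21% lower. Within males it differed by -0.23 (SE 0.12, limma adjusted p = 0.298), with 0 of the 8 genes called, 1 at an unadjusted p under 0.05, and 4.02% of probe sets called, 2.03% higher and 1.98% lower. The difference between those effects was 0.20 (95% confidence interval -0.15 to 0.54, limma adjusted p = 0.994). Order by level ran from HHR females (8.87 ± 0.17) to HHR males (8.96 ± 0.15), NHR males (9.19 ± 0.21) and NHR females (9.29 ± 0.20; SD, n = 4), and neighbouring groups of one strain lay within each other's spread. The call in females rests on few arrays. Leaving out HHR female 1 or HHR female 4 ended it (limma adjusted p = 0.0911 and 0.0556), as did leaving out NHR female 1 or NHR female 4 (0.0597 and 0.0890).

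Heart muscle cells are a main site of the mineralocorticoid receptor in the heart, and some of their markers moved the same way. Of 8 cardiomyocyte markers 4 fell (Myh6 -0.21, Myh7 -0.14, Tnni3 -0.20, Ryr2 -0.26) and 0 rose. Of all genes 23.1% were called, 11.8% higher and 11.2% lower. The mean level of the 8 markers ran from 13.28 to 13.38 in HHR and from 13.35 to 13.48 in NHR. Leaving out the high-scoring NHR arrays gave 2 lower calls among these markers, where Nr3c2 differed by -0.39. Replicates 1 and 2 alone, with fewer arrays, gave 0 lower calls among them, where Nr3c2 differed by -0.40. The part of these markers in the Nr3c2 difference was not tested. In whole tissue fewer cells of a type cannot be told apart from less RNA per cell. Nr3c1, the glucocorticoid receptor, which binds the same DNA element, differed by 0.06 (10.47 ± 0.07 in HHR, 10.41 ± 0.13 in NHR, SD, n = 8, limma adjusted p = 0.462).

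The genes whose values over the 16 arrays followed Nr3c2 most closely, out of 14323, were Tox (Pearson r = 0.943, Spearman rho = 0.953), Ly6c (r = 0.926, rho = 0.947) and Sphkap (r = 0.926, rho = 0.912). With group means removed these values of r were 0.905, 0.848 and 0.860. They are descriptions of arrays that share strain and the component within groups, and no test was made. Each of these genes was itself lower in HHR, with differences of -0.37, -0.43 and -0.34. On chromosome 19 the 3 measured genes on each side of Nr3c2 in RefSeq order (GRCr8) included 1 call, Tmem184c, which was higher in HHR by 0.40 (SE 0.08, limma adjusted p = 0.00162). The other 5 (Ttc29, Arhgap10, Ces2g, Ces4a and Cbfb) differed by between -0.04 and 0.14 and did not pass.

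**Figure D2:**
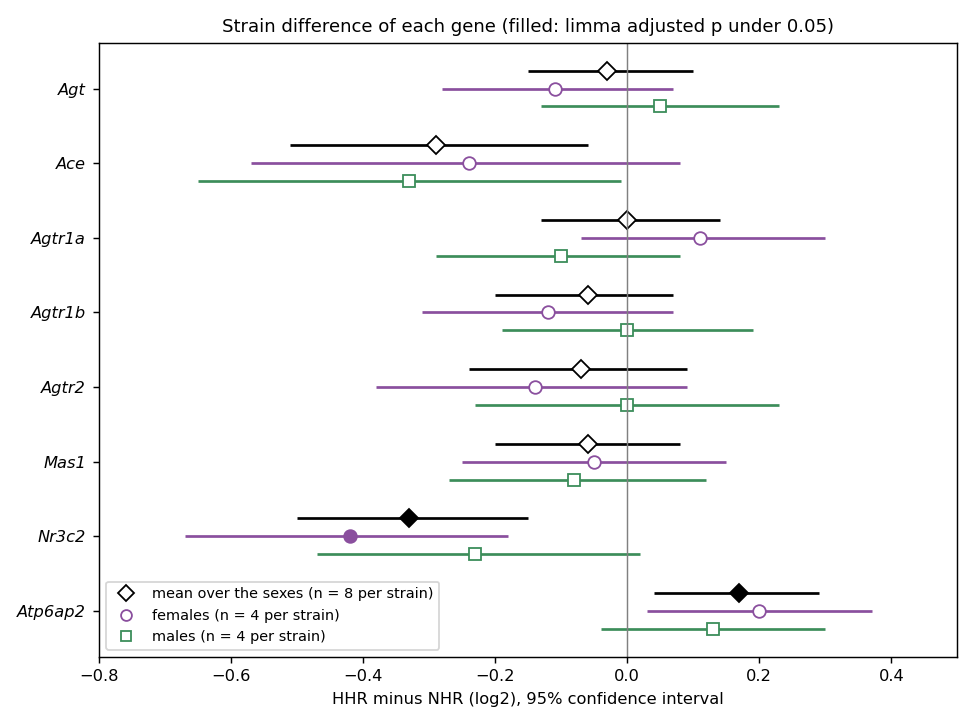
HHR minus NHR (log2, horizontal axis) for each gene with its 95% confidence interval, averaged over the sexes (n = 8 per strain) and within females and males (n = 4 per strain). Filled symbols passed a limma adjusted p of 0.05, which Nr3c2 did overall and in females and Atp6ap2 did overall.

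Atp6ap2, the (pro)renin receptor gene, read 9.36, 9.30, 9.15 and 9.09 in HHR females and 9.25, 9.20, 9.26 and 9.17 in HHR males (RMA log2, replicates 1 to 4). In NHR females it read 9.20, 9.07, 8.93 and 8.89, and in NHR males 9.12, 9.25, 8.95 and 9.04. The strains overlapped: 4 of 8 HHR arrays exceeded every NHR array, and NHR female 1, NHR male 1 and NHR male 2 lay within the HHR range. Means were 9.22 ± 0.09 in HHR and 9.06 ± 0.13 in NHR (SD, n = 8), and the 95% confidence interval of the difference was 0.04 to 0.29. The exact permutation test within sex gave p = 0.0135. Differences were 0.20 in females (limma adjusted p = 0.122) and 0.13 in males (limma adjusted p = 0.398).

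This call stands at the threshold. It held in the alternatives that kept all 16 arrays, at limma adjusted p values of 0.0172 to 0.0492. It stayed when HHR female 4, NHR female 1 or NHR male 2 was left out and ended when any other array was, at limma adjusted p values of 0.106, 0.0939 and 0.0540 without HHR female 1, 2 or 3, and 0.0838, 0.0726, 0.0834 and 0.0585 without HHR male 1, 2, 3 or 4. Without NHR female 2, 3 or 4 the values were 0.0551, 0.0945 and 0.103, and without NHR male 1, 3 or 4 they were 0.0636, 0.105 and 0.0816. Without the high-scoring NHR arrays the difference was 0.10 (limma adjusted p = 0.313), over 1.5 times smaller. With group means removed, Atp6ap2 ran against the component (r = -0.700 over 16 arrays), so leaving out only its high end is not a balanced check. Over the arrays 595 genes had a Pearson r of 0.8 or more with Atp6ap2, compared with 106 for Nr3c2. Closest were Scn3b (r = 0.956, rho = 0.918), Adipor1 (r = 0.931, rho = 0.903) and Tmx4 (r = 0.930, rho = 0.903), with r of 0.947, 0.882 and 0.907 once group means were removed. None of the 6 nearest measured genes on the X chromosome passed, with differences from -0.12 (Mid1ip1) to 0.13 (Med14).

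Subunits of the vacuolar proton pump, with which the (pro)renin receptor associates, were higher where they were called. Of 14 measured, 4 rose and 0 fell, a share of 28.6% that is near the 23.1% of all genes called, 11.8% higher and 11.2% lower. Their median difference was 0.08 beside -0.02 over all genes. Atp6v1d, a stalk subunit, read 10.76 to 11.04 in HHR and 9.82 to 10.31 in NHR, with all 8 HHR arrays above every NHR array (log2 difference 0.85, SE 0.07, limma adjusted p = 6.8e-07), and it differed by 0.85 in each sex. Atp6ap1, the other accessory protein, rose by 0.24 (12.04 ± 0.07 and 11.79 ± 0.17, SD, n = 8, limma adjusted p = 0.00475). Atp6v1f rose by 0.19 (limma adjusted p = 0.00475) and the catalytic subunit Atp6v1a by 0.17 (limma adjusted p = 0.0190), the latter call ending without the high-scoring NHR arrays (limma adjusted p = 0.0876). Under each of 3 other scalings the counts were also 4 and 0, and leaving out the high-scoring NHR arrays gave 4 higher and 1 lower. Replicates 1 and 2 alone, with fewer arrays, gave 1 higher and 0 lower.

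The stretch before the start of a gene is where its basal promoter elements lie, and 6 of the 8 genes matched the RefSeq promoter table of GRCr8, while Agt and Nr3c2 did not. Shown are the 250 bases before the start of Atp6ap2, the called gene with an entry, and of the type 1 receptor pair, whose genes differed in being above the dim level. Capitals mark GGGCGG (GC box), CCAAT and TATAAA on either strand, searched together with the palindrome CACGTG.
Atp6ap2, chrX:12883671-12883920, - strand: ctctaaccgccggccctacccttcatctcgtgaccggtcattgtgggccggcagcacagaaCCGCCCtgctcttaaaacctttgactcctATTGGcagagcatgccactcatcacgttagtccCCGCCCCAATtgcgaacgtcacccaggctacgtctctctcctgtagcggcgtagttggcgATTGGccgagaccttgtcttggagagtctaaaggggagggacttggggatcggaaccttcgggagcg
Agtr1a, chr17:34435433-34435682, - strand: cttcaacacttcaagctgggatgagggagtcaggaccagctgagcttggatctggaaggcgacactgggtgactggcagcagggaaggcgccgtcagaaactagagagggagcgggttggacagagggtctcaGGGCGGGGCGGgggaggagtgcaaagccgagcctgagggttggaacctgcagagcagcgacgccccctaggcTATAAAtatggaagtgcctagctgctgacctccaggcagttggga
Agtr1b, chr2:104849263-104849512, - strand: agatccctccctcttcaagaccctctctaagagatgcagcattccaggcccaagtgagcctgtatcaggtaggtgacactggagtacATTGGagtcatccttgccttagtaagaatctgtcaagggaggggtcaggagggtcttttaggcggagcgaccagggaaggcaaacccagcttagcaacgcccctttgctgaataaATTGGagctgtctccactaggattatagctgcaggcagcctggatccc
The Atp6ap2 window holds CCAAT on either strand at 3 places and the GC box at 2, of which 1 of each overlap, and no TATAAA. Agtr1a has 2 overlapping GC boxes and a TATAAA that begins 45 bases before the start, whereas the Agtr1b window holds CCAAT in reverse at 2 places and neither of the others. CACGTG is in none of the 3 windows. Of 33469 promoter windows of this length, 30.5% hold the GC box, 34.0% CCAAT, 12.9% TATAAA and 5.59% CACGTG. These matches describe letters only.

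Agtr1a, the main type 1 receptor of the rat, was above the dim level on all 16 arrays and had nearly equal means, 7.49 ± 0.14 in HHR and 7.49 ± 0.13 in NHR (SD, n = 8). HHR females read 7.38, 7.77, 7.58 and 7.49 and HHR males 7.40, 7.55, 7.32 and 7.47 (RMA log2). NHR females read 7.46, 7.38, 7.45 and 7.47, and NHR males 7.47, 7.72, 7.32 and 7.64. The strains covered the same range, with HHR female 2 alone above the highest NHR array. The 95% confidence interval of the difference ran from -0.13 to 0.14 (limma adjusted p = 0.970), which bounds the signal difference averaged over the sexes to about that size. Within a sex the bounds were wider. The difference was 0.11 in females (95% confidence interval -0.07 to 0.30) and -0.10 in males (-0.29 to 0.08). The difference between these, -0.21 (95% confidence interval -0.48 to 0.05), did not pass (limma adjusted p = 0.994).

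The remaining receptors lay under the dim level on all 16 arrays. Agtr1b, the second type 1 receptor gene, averaged 5.18 ± 0.12 in HHR and 5.24 ± 0.14 in NHR (SD, n = 8), a difference of -0.06 (95% confidence interval -0.20 to 0.07, limma adjusted p = 0.531). It is a close paralog of Agtr1a, and how far the probes tell the pair apart is unknown here. Agtr2 ranged from 5.46 to 5.97 (median 5.65) in HHR and from 5.51 to 5.93 (median 5.76) in NHR, and differed by -0.07 (95% confidence interval -0.24 to 0.09, limma adjusted p = 0.552). Mas1 ranged from 4.86 to 5.28 (median 5.06) in HHR and from 4.96 to 5.36 (median 5.10) in NHR, and differed by -0.06 (95% confidence interval -0.20 to 0.08, limma adjusted p = 0.545). In females these 3 genes differed by -0.12, -0.14 and -0.05 and in males by -0.00, -0.00 and -0.08, none past the test. Requiring a value above the dim level on at least 4 arrays keeps 5 of the 8 genes, and these 3 are the ones it drops.

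Agt, the angiotensin precursor, was above the dim level on 15 of 16 arrays. It ranged from 6.61 to 6.88 (median 6.78) in HHR and from 6.52 to 6.97 (median 6.81) in NHR, so the HHR values lay inside the NHR range. Its difference was -0.03 (95% confidence interval -0.15 to 0.10, limma adjusted p = 0.792), with -0.11 in females and 0.05 in males. The liver is the main source of angiotensinogen in the adult. Of 4 measured liver markers 1 rose and 0 fell, a share of 25.0% near the 23.1% of all genes called, 11.8% higher and 11.2% lower. Their mean level reached at most 6.23 on HHR arrays and 6.24 on NHR arrays. Alb, Serpina1 and Fgb were above the dim level on 0 of 16 arrays. Ttr, also made outside the liver, was above it on all 16 and higher in HHR by 0.18 (limma adjusted p = 0.0442), a call that stayed without HHR female 1, NHR female 1, 3 or 4, or NHR male 2 and ended without any other array or without the high-scoring NHR arrays. The part of these markers in the Agt values was not tested.

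Ace, the angiotensin-converting enzyme gene, read lower in HHR on average but did not pass the test over all probe sets. HHR females read 7.86, 8.33, 8.08 and 8.06 and HHR males 7.91, 8.02, 7.97 and 8.43 (RMA log2). NHR females read 8.22, 8.13, 8.60 and 8.35, and NHR males 8.27, 8.17, 8.29 and 8.92. Thus 6 of 8 HHR arrays lay below the lowest NHR array, while HHR female 2 and HHR male 4 lay within the NHR range. Means were 8.08 ± 0.20 in HHR and 8.37 ± 0.26 in NHR (SD, n = 8), a difference of -0.29 (SE 0.11, 95% confidence interval -0.51 to -0.06). The limma p was 0.0173 before adjustment and the limma adjusted p = 0.0722. The exact permutation test within sex gave an unadjusted p = 0.0265. By sex the difference was -0.24 in females and -0.33 in males (limma adjusted p = 0.341 and 0.248), and the difference between these was -0.09 (95% confidence interval -0.54 to 0.37).

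The size of the Ace difference depends on a few arrays. Leaving out NHR male 4 gave -0.20 (limma adjusted p = 0.126), and leaving out all the high-scoring NHR arrays gave -0.13 (limma adjusted p = 0.392). Ace passed without HHR male 4 (-0.34, limma adjusted p = 0.0303) or without NHR male 2 (-0.33, limma adjusted p = 0.0428). It also passed with the replicate number as a block (-0.29, limma adjusted p = 0.0402), although the labels do not say that equal numbers mark a shared source. With group means removed, Ace followed the component (r = 0.750 over 16 arrays), whereas Nr3c2 ran against it (r = -0.535). Leaving out only the high end of the component is thus not a balanced check for Ace either. Ace is a gene of endothelium, and of 5 measured endothelial markers 4 fell in HHR and 0 rose, where 11.2% of all genes were lower: Cldn5 by 0.41, Tie1 by 0.22, Egfl7 by 0.20 and Cdh5 by 0.16, the last not past the threshold after median centring (limma adjusted p = 0.0606). Their mean level ran from 10.11 to 10.32 in HHR and from 10.34 to 10.53 in NHR. Without the high-scoring NHR arrays 4 were called lower too, and replicates 1 and 2 alone, with fewer arrays, gave 1 lower call among these markers. Their part in the Ace values was not tested.

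**Figure D3:**
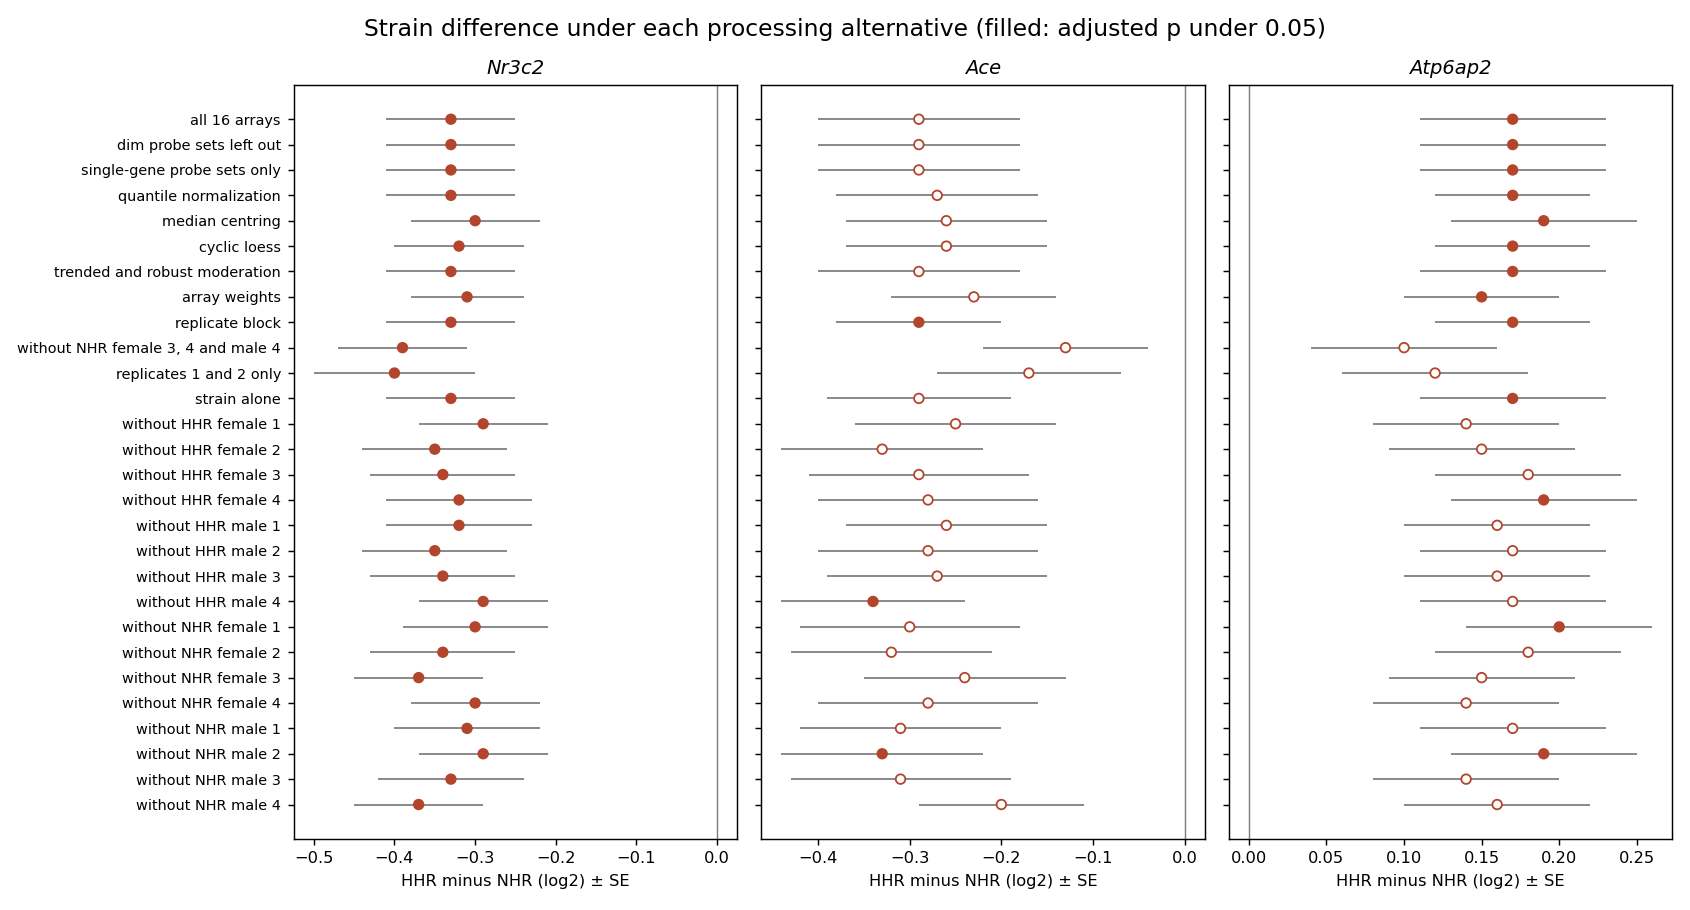
HHR minus NHR (log2, horizontal axis, ± SE) of Nr3c2, Ace and Atp6ap2 with all 16 arrays and under each of 27 alternatives (rows), filled where the limma adjusted p was under 0.05. Nr3c2 was past the threshold in all 27, Atp6ap2 in 12 and Ace in 3.

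Around the 8 genes, enzymes that make or break angiotensin peptides gave 3 rises and 1 fall among 15 measured genes, a share of 26.7% against 23.1% of all genes. Enpep, aminopeptidase A, which shortens angiotensin II, rose by 0.22 (10.61 to 10.80 in HHR, 10.36 to 10.59 in NHR, limma adjusted p = 0.00128), with all 8 HHR arrays above every NHR array. Ctsd, a lysosomal aspartic protease able to cut angiotensinogen, fell by 0.33 (10.59 to 10.88 in HHR, 10.91 to 11.16 in NHR, limma adjusted p = 3.1e-04), and no HHR array reached the lowest NHR array. Ece1, the endothelin-converting enzyme, rose by 0.20 (limma adjusted p = 0.0150), a call that ended after quantile normalization (limma adjusted p = 0.0651). Mme, neprilysin, was higher by 0.20 (limma adjusted p = 0.0448), a call that stayed without HHR male 1, NHR female 1, NHR male 2 or NHR male 4 and ended without any other array (limma adjusted p = 0.0507 to 0.0879), as it did without the high-scoring NHR arrays (0.128). Chymase, Cma1, and cathepsin G, Ctsg, which form angiotensin II independently of Ace, were under the dim level on all arrays and did not pass.

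Among 17 measured receptor partners and kinin receptors 1 rose and 3 fell, a share of 23.5% beside 23.1% of all genes. Rgs2, which shortens signalling by the G protein that the type 1 receptor uses, rose by 0.43 (8.16 ± 0.13 in HHR, 7.73 ± 0.16 in NHR, SD, n = 8, limma adjusted p = 3.2e-04), and 7 of 8 HHR arrays exceeded every NHR array. The apelin receptor gene Aplnr, a close relative of the angiotensin receptors, fell by 0.33 (10.43 ± 0.16 and 10.77 ± 0.29, limma adjusted p = 0.0254), a call that ended without HHR female 1, HHR male 4 or NHR male 1 (limma adjusted p = 0.0571, 0.0529 and 0.0541). Mrgprd, a receptor related to Mas, fell by 0.17 (limma adjusted p = 0.0338). That call ended under each of the 3 scalings (limma adjusted p = 0.0696 to 0.0931), without the high-scoring NHR arrays (0.0888), or on leaving out HHR female 2 or 3, HHR male 1, NHR female 1 or 4, or NHR male 1 or 4 (0.0540 to 0.0735). The kininogen gene Kng1 fell by 0.33 (limma adjusted p = 0.0208) at levels under the dim level on all arrays, with -0.70 in females and 0.04 in males, and did not pass when sex was left out of the fit (limma adjusted p = 0.0957). The kinin receptors Bdkrb1 and Bdkrb2 differed by -0.09 each and did not pass.

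Steroid genes gave 1 rise and 1 fall among 11 measured, a share of 18.2% beside 23.1% of all genes. Hsd11b1, which regenerates active glucocorticoid inside cells, rose by 0.27 (7.04 ± 0.10 in HHR, 6.77 ± 0.23 in NHR, SD, n = 8, limma adjusted p = 0.00252). H6pd, which supplies that enzyme with its cofactor, fell by 0.27 (limma adjusted p = 0.0227), but differed by -0.16 without the high-scoring NHR arrays (limma adjusted p = 0.158), and its call also ended without HHR female 3 (limma adjusted p = 0.0516). Hsd11b2, the enzyme that shields the mineralocorticoid receptor from glucocorticoid, averaged 6.83 ± 0.09 in HHR and 6.83 ± 0.13 in NHR (limma adjusted p = 0.979). Cyp11b2, the aldosterone synthase of the adrenal cortex, was under the dim level on all arrays (5.15 ± 0.20 and 5.16 ± 0.11, limma adjusted p = 0.926). None of 4 adrenal cortex markers passed, where 23.1% of all genes did.

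Genes known to respond to the mineralocorticoid receptor did not share a direction. Of 13 measured, 2 rose and 1 fell, a share of 23.1% that equals the share over all genes, with a median difference of -0.01 beside -0.02 over all genes. Lcn2, which encodes a secreted iron-siderophore-binding protein and is an aldosterone-responsive gene, read 9.13 to 9.44 in HHR and 6.73 to 7.16 in NHR (5.05-fold, limma adjusted p = 5.2e-14). It entered this list with its rise in these arrays already known, so it is not independent evidence of a direction. Atp1b1, the sodium pump beta subunit, rose by 0.21 (limma adjusted p = 0.00285), and the protease gene Adamts1 fell by 0.33 (limma adjusted p = 0.00562), or by 0.26 without the high-scoring NHR arrays (limma adjusted p = 0.0574). The classical targets Sgk1 and Fkbp5 differed by -0.02 (limma adjusted p = 0.910) and 0.14 (limma adjusted p = 0.508). Fkbp5 was uneven in NHR (8.30 to 9.65), and without NHR male 4 it was higher by 0.26 (limma adjusted p = 0.0393). The epithelial sodium channel genes Scnn1a, Scnn1b and Scnn1g did not pass.

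Genes known to respond to angiotensin II in heart or vessel gave 2 rises and 3 falls among 18 measured, a share of 27.8% beside 23.1% of all genes, of which 11.8% were higher and 11.2% lower. Edn1, the endothelin precursor, rose by 0.67 (8.47 to 9.56 in HHR, 7.82 to 8.94 in NHR, limma adjusted p = 4.8e-04), with 1.20 in females and 0.14 in males (interaction limma adjusted p = 0.676). Nppa, the atrial natriuretic peptide gene, rose by 0.34 (13.15 to 13.48 in HHR, 12.75 to 13.21 in NHR, limma adjusted p = 2.9e-04). Of 5 measured atrial markers, Nppa among them, 3 rose and 0 fell, where 11.8% of all genes were higher, with a mean level of 10.39 to 11.31 in HHR and 9.85 to 10.61 in NHR, and their part in the Nppa value was not tested. Rcan1, a calcineurin-responsive gene, fell by 0.29 (limma adjusted p = 0.0105), and the oxidase gene Nox4 fell by 0.15 (limma adjusted p = 0.0230), a call that ended under the 3 scalings (limma adjusted p = 0.0581 to 0.0776) and without HHR male 1 (0.0512). Tgfb1, named after its values were seen, fell by 0.18 (limma adjusted p = 0.0385), a call that ended with median centring (0.0825) or without any of 10 arrays (0.0527 to 0.0790). The collagen genes Col1a1 and Col3a1, the early genes Fos and Egr1, and Ccn2 did not pass.

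**Figure D4:**
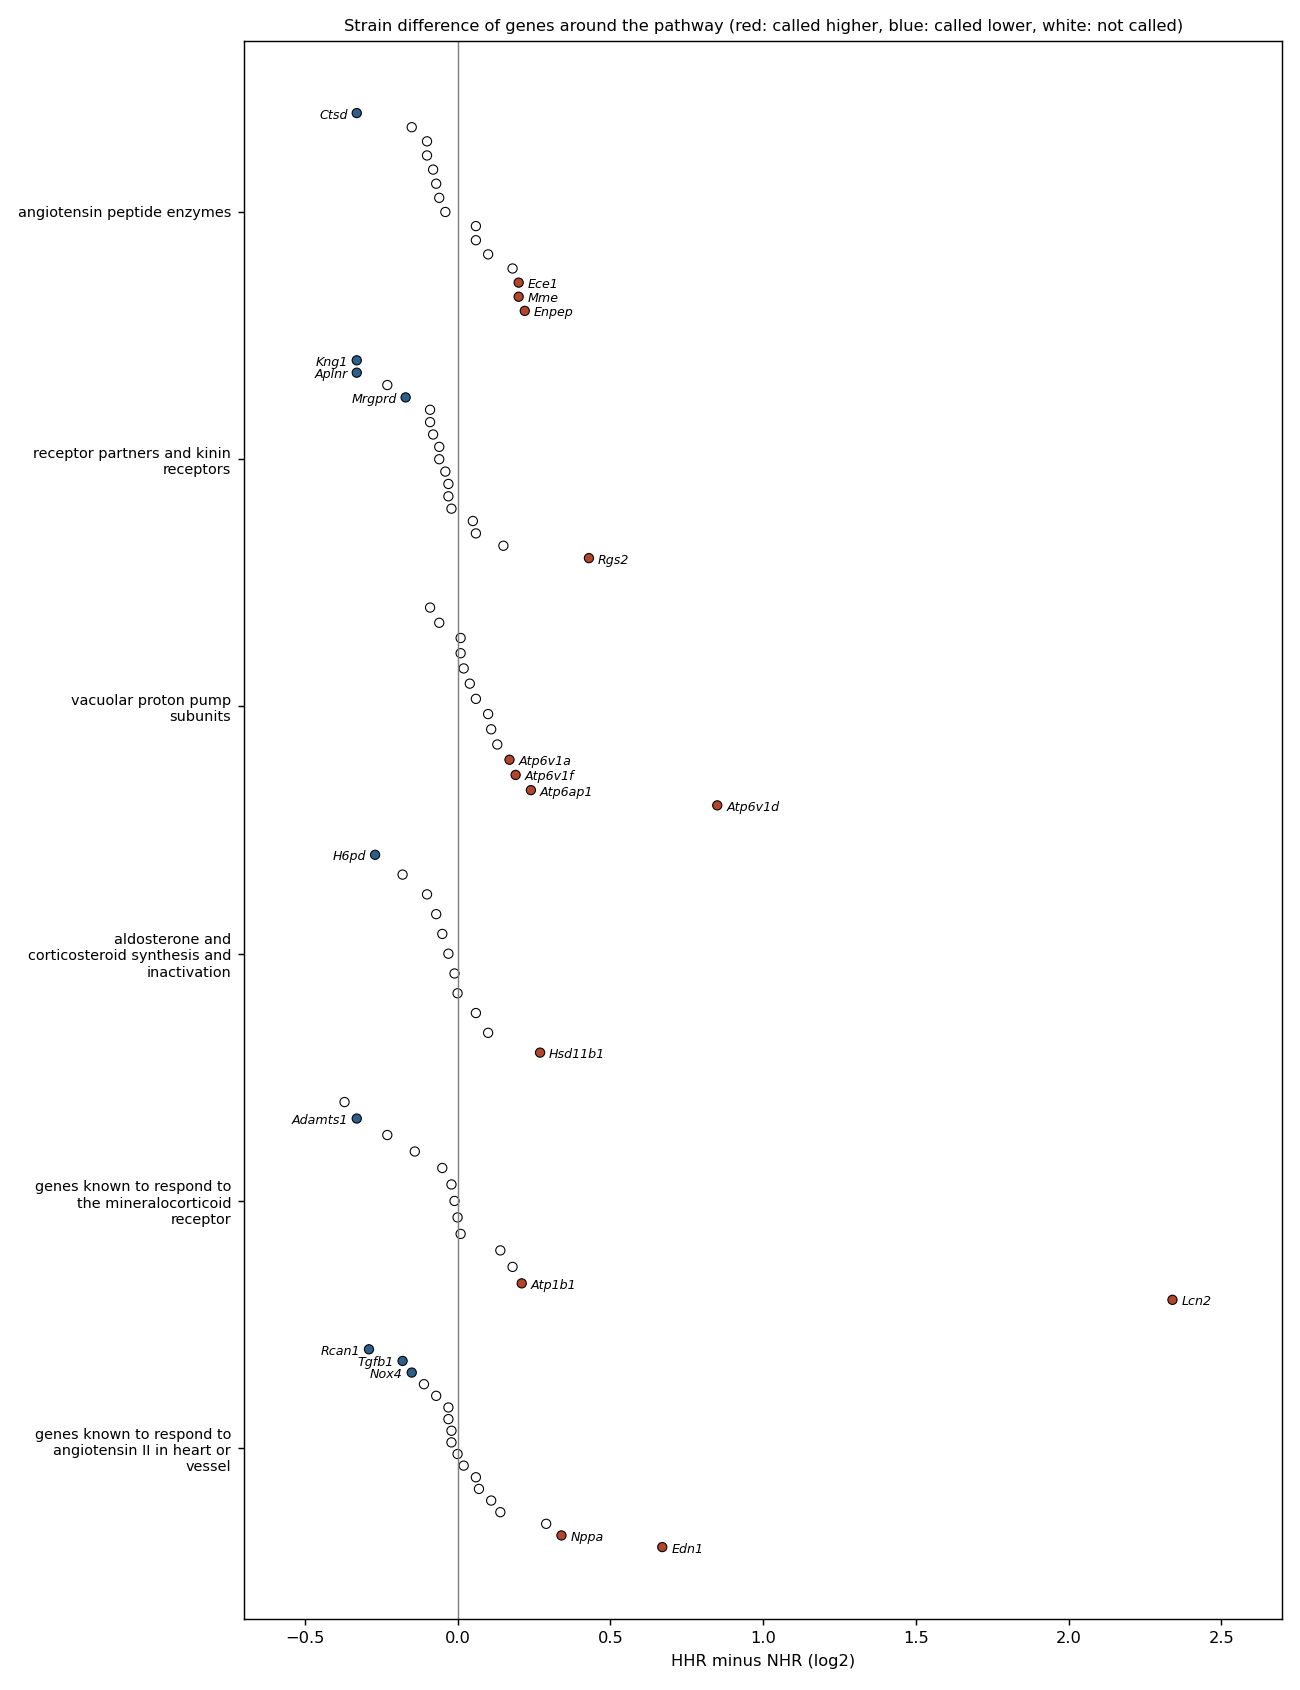
HHR minus NHR (log2, horizontal axis) of each measured gene in the 6 lists around the pathway, sorted within a list, with called genes named. Of 88 genes 13 were called higher (red) and 9 lower (blue), where 11.8% of all genes were called higher and 11.2% lower. Lcn2 lies farthest from 0 at 2.34, and the called vacuolar proton pump subunits lie on the higher side.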

How the data were processed

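RNA of 16 hearts was measured on 1 Affymetrix array each. The authors deposited log2 values. Per the submitters' processing notes RMA and limma were used; their versions and any filter are unknown here. RMA corrects background, scales arrays to each other and pools probes, so small differences are relative to the other genes. Group and replicate came from sample titles.

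Probe sets were named through the platform annotation (15097 of 27342 with a single symbol). A mean per group was fitted with limma 3.58.1 in R 4.3.3, with empirical Bayes moderation; the code was tested on simulated data. Tests were two-sided, errors beside differences are moderated standard errors, and precision is limited by how many arrays there were. Negative differences are lower in HHR. The 8 genes, 6 surrounding lists and cell markers were chosen with earlier results of these data known. Named were all 8 genes, up to 4 called genes per list with the smallest adjusted p, and Nr3c1, Hsd11b2, Cyp11b2, Sgk1, Fkbp5 and Lcn2 whatever their values; other names are examples chosen after their values were seen. Alternatives were a dim filter, single-gene probe sets, 3 scalings, other moderation, array weights, the replicate number as a block, strain alone, and leaving out arrays.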

Additional observations from a re-analysis of the deposited data

Results flagged for a closer look

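In 3 of the 32 sets of 4 arrays (8 genes in 4 groups), 1 array lay far from the other 3 of its group. Dixon's criterion at 95% marks about 5% of such sets by chance. Ace was 8.92 in NHR male 4, against 8.17 to 8.29 in the other NHR males. Agtr1b was 5.04 in NHR female 3, against 5.35 to 5.40 in the other NHR females, and Mas1 was 4.86 in HHR female 1, against 5.05 to 5.07, both under the dim level. NHR male 4 and NHR female 3 are among the high-scoring NHR arrays.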

How the results depend on the processing

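Nr3c2 kept its direction and its call in all 27 alternatives; the other values that changed are grouped here, and the cause was not tested. Leaving out the 3 high-scoring NHR arrays moved Atp6ap2 to 0.10, members called to 1, calls in females to 1238 probe sets and sex calls to 0. Signs turned there for Agtr1b (0.03) and Agtr2 (0.01) in males, Hsd11b2 (-0.02), Sgk1 (0.15) and the Atp6ap2 interaction (0.03). Replicates 1 and 2 alone, with fewer arrays, gave 1576 probe sets for strain, 319 in females, 204 in males and 0 for sex, 1 gene of 8 called for strain and 0 in females, 6 higher and 4 lower genes in the surrounding lists, 0.12 for Atp6ap2, 0.01 for Agtr1b and for Agtr2 in males, 0.00 for Cyp11b2 and 0.12 for Sgk1. Quantile normalization turned Agt (0.00), Cyp11b2 (0.03), Agtr1b (0.01) and Agtr2 (0.03) in males and Mas1 in females (0.01). Median centring turned Cyp11b2 (0.01), Sgk1 (0.00), and Agtr1b and Agtr2 in males (0.01 each); cyclic loess turned Agt (0.01), Cyp11b2 (0.03), and Agtr1b and Agtr2 in males (0.03 each). Array weights gave 2035 calls in males, 5 for sex and 0.04 for Sgk1. A threshold of 0.01 gave 2893 strain calls and a 1.5-fold minimum 229.

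Leaving out 1 array gave 4651 to 6402 strain calls, 1830 to 3761 in females, 489 to 2026 in males, 0 to 1 for the interaction and 2 to 4 for sex, with 1 to 3 of the 8 genes called for strain, 0 to 1 in females, and 12 to 15 higher and 6 to 13 lower in the surrounding lists. Differences ranged from -0.34 to -0.20 for Ace, -0.03 to 0.03 for Agtr1a, 0.14 to 0.20 for Atp6ap2, -0.07 to 0.03 for Cyp11b2, -0.03 to 0.03 for Hsd11b2 and -0.07 to 0.05 for Sgk1. In males they ranged from -0.02 to 0.09 for Agt, -0.05 to 0.07 for Agtr1b, -0.08 to 0.05 for Agtr2 and -0.15 to 0.00 for Mas1, and the Ace interaction from -0.20 to 0.08.

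The labels do not say that equal replicate numbers mark a shared source, and not every pair deviated together, so the numbers were not used as pairs, although scores on the first component within groups followed them. Over 24 pairs the correlation of deviations ran from -0.108 to 0.367 (median 0.0905), 11 were over 0.1, and 9 of 16 arrays correlated best with their own number. With the replicate number as a block Ace was -0.29 (limma adjusted p = 0.0402), Nr3c2 -0.33 (0.0110), Atp6ap2 0.17 (0.0172) and Tgfb1 -0.18 (0.0517). The exact permutation test, at an unadjusted threshold, also passed Ace (-0.29, p = 0.0265). Other probe sets of the 8 genes could not be tried, since each has 1. Levels under the dim level limit Agtr1b, Agtr2 and Mas1.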
